A study of Mus musculus with 39 samples.

Results

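Radial glial cells (RGCs) are the neural stem cells of the embryonic cortex, and 10 genes that mark them were examined here for binding of Notch and its DNA-binding partner RBPJ: Nes, Vim, Fabp7, Aldoc, Glul, Slc1a3, Ptprz1, Tnc, Prom1 and Hopx. A peak was assigned to a marker gene when no other protein-coding gene had a closer start site, measured from the edge of the peak on mm10 (GRCm38.p6) with the start sites of GENCODE vM21. By this rule the marker genes held 39 of 20809 consensus peaks on the nuclear chromosomes. They were chosen by name, though with earlier results of these data known. The deposited files hold positions of peaks and no expression, so whether these genes marked the profiled cells could not be checked.

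Binding was mapped by Targeted DamID (TaDa), in which the bacterial methylase Dam is attached to the protein under study and marks nearby GATC sites wherever that protein sits on DNA. Wild-type MF1 mouse embryos were electroporated in utero at E13.5 and the cortex was harvested after 24 h, at E14.5. Plasmids drove the fusions from a Hes5 promoter fragment in RGCs or from the Tα1 promoter of Tuba1a in intermediate progenitor cells (IPCs), the daughter cells of RGCs on the way to neurons. RBPJ was human RBPJ1 in 3 RGC and 3 IPC samples. Notch was mouse NICD, its cleaved intracellular domain, in 2 RGC and 4 IPC samples, and NΔECD (labelled NdECD), a form without the extracellular domain, in the other 2 RGC samples. Dam alone, the kind of sample used as control, was profiled in 5 RGC and 4 IPC samples. It was also profiled from a ubiquitous promoter in 7 samples (E17.5) and in neurons in 3 samples (E16.5). The methods list all of these among the Dam-only replicates used for normalization. Which Dam-only samples each fusion was paired with is not spelled out in the methods. The RBPJ and Notch lists of a cell type are taken here to share controls, and whether lists of the 2 cell types also did is not known. The fusions came from plasmids, on top of the cells' own RBPJ and Notch, and a promoter fragment defined each cell type. One list of peaks was deposited for each protein and cell type, with peaks kept when present in every pair of fusion and control. Height, q-value and values of single samples are not in these files, so no spread between replicates and no depth can be given and no test was run. Intervals below cover counting error over peaks only, and neighbouring peaks of a gene are not independent.

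Notch receptors are cut when a neighbouring cell presents a ligand. The released intracellular domain enters the nucleus and joins RBPJ, which binds DNA at sites with the core word TTCCCA and represses or activates genes depending on its partners. In the cortex this pathway keeps RGCs in the progenitor state, and Hes1 and Hes5 are its best known targets. Fabp7 has long been known as a Notch target in radial glia, and the second intron of Nes is known to hold its neural enhancer.

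All 10 marker genes had at least 1 consensus peak, whereas 39.7% of the 21938 protein-coding genes had one. RBPJ peaks in RGCs lay nearest to 9 marker genes, against 31.7% of all protein-coding genes, and the gene without one was Prom1. Notch peaks in RGCs lay nearest to 7 of 10, against 11.7%. In IPCs, RBPJ peaks lay nearest to 6 marker genes, against 16.4%, and Notch peaks to 6, against 6.97%. The background takes in every protein-coding gene, expressed in the cortex or not, and was not matched to the marker genes in any property. Peaks were spread unevenly: Ptprz1 had 11 consensus peaks and Slc1a3 had 10, together 53.8% of the total, and Fabp7, Aldoc and Prom1 had 1 each. A count of 11 or more consensus peaks was found at 1.02% of protein-coding genes, and one of 10 or more at 1.26%.

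**Figure D1:**
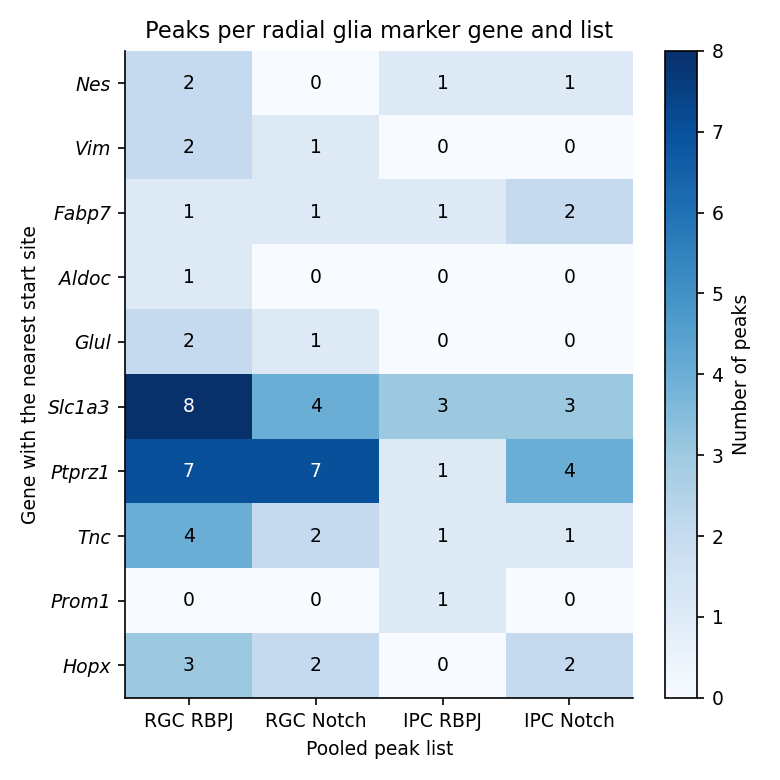
Number of peaks in each of the 4 pooled lists (columns) whose nearest protein-coding start site belonged to each marker gene (rows). Slc1a3, with 8 RGC RBPJ peaks, and Ptprz1, with 7 RBPJ and 7 Notch peaks in RGCs, stand out, and Prom1 has its only peak in the IPC RBPJ list.

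Nes encodes nestin, the intermediate filament protein by which neural stem cells are most often recognised. At Nes the RGC RBPJ list held 2 peaks, the RGC Notch list 0, and the IPC RBPJ and IPC Notch lists 1 each. The first peak, chr3:87970297-87971358, spanned all 3 annotated start sites and was called only for RBPJ in RGCs. The second, chr3:87973056-87976478, was called for RBPJ in both cell types and for Notch in IPCs. It covered the whole of intron 2 (1685 bp) and intron 3 (545 bp) of the first annotated transcript. The RGC RBPJ peak there was 3423 bp wide, the IPC Notch peak 2222 bp and the IPC RBPJ peak 968 bp, the last lying within both of the others. The median widths of these lists over all their peaks were 2059, 1284 and 1398 bp in the same order. The IPC RBPJ peak lay over intron 2 and did not reach intron 3, and RGC Notch was the list without a call. Both consensus peaks belonged to cluster 7. The intronic peak carried 7 TTCCCA words, of which 2 extended to TTCCCAC. The word nearest to its midpoint, read on the opposite strand as GTGGGAA, lay 3.55 kb after the start site in intron 2 and inside the peaks of all 3 lists. It is shown in capitals with its surroundings, as are the words in the other 60-base stretches, each of which was taken outside exons.
Nes, peak stretch, chr3:87974597-87974656, plus strand: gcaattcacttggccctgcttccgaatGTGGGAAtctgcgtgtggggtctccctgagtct

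Vim encodes vimentin, the filament protein that pairs with nestin in RGCs. A consensus peak of 5473 bp, chr2:13571615-13577087, covered 5 of its 6 start sites and the first exons, and both RGC lists called it. The RBPJ peak ran from 1.72 kb before to 3.16 kb after the first start site and the Notch peak from 2.31 kb before to 2.93 kb after it. The IPC lists held 0 peaks at Vim. A second peak, in the RGC RBPJ list alone, lay 44.8 kb away and was the only consensus peak of the 39 in cluster 8.

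Fabp7 encodes brain lipid-binding protein, a fatty acid carrier of radial glia. Its single consensus peak, chr10:57781836-57787010, covered both start sites and was 1 of 2 at the marker genes called in all 4 lists, as were 0.678% of all consensus peaks. The RGC Notch peak was the widest (5175 bp), and the RBPJ peaks measured 2773 bp in RGCs and 2727 bp in IPCs. Both RBPJ peaks began within 1.70 kb before the start site and ended within 1.15 kb after it. IPC Notch had a pair of abutting peaks, of 1983 and 1224 bp, which together filled a similar stretch. The calls of the 4 lists therefore fell on the same stretch around the start site. The 250 bases before the Fabp7 start site held 1 TTCCCA word, 207 bases before it. They are shown, with that word or its reverse complement in capitals as in the other stretches of this length, beside the 60 bases around the GTGGGAA word nearest to the midpoint of the peak, which lay 2.93 kb upstream and within the peak of RGC Notch but not of the other lists.
Fabp7, bases before the start site, chr10:57784631-57784880, plus strand: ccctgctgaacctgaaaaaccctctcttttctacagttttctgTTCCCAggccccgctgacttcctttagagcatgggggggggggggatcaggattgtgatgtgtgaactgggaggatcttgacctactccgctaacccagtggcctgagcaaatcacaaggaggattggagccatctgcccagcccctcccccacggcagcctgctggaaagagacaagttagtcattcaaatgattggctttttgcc
Fabp7, peak stretch, chr10:57781927-57781986, plus strand: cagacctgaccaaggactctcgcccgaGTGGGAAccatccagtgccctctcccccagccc

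Aldoc encodes the glycolytic enzyme aldolase C and Glul encodes glutamine synthetase, which turns glutamate into glutamine, and both stay on in astrocytes. Aldoc had 1 peak, chr11:78321138-78325897, in the RGC RBPJ list alone. It covered all 6 start sites and lay in cluster 6. It carried 10 TTCCCA words, the most of any marker gene peak. One of them, which also reads GTGGGAA, began 22 bases before the start site.
Aldoc, bases before the start site, chr11:78322718-78322967, plus strand: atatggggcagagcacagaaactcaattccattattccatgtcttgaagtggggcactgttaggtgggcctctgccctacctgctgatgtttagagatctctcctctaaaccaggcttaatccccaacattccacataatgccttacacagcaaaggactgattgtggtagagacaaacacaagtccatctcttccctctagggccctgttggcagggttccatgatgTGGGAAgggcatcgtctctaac

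At Glul the peak on the start site, chr1:153899255-153903407, was called in both RGC lists. It was placed in cluster 2. Intron 1 of the first transcript lay wholly inside it, and it also covered a start site of Teddm2, so its assignment to Glul was tied. The GTGGGAA word nearest to its midpoint lay in that intron, 0.808 kb after the start site. A second Glul peak of 437 bp, in the RGC RBPJ list, lay 69.0 kb from the nearest Glul start site. As at Vim and Aldoc, the IPC lists held 0 peaks at Glul.
Glul, peak stretch, chr1:153900725-153900784, plus strand: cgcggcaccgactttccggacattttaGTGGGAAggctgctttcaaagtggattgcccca

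Slc1a3 encodes GLAST, the glutamate transporter of radial glia and astrocytes. It held 8 RGC RBPJ peaks, 4 RGC Notch peaks, 3 IPC RBPJ peaks and 3 IPC Notch peaks, merged into 10 consensus peaks along a stretch of 258 kb in which its start sites are the nearest. The start-site peak, chr15:8709492-8712337, was called for both proteins in RGCs and for neither in IPCs. Away from the start site, 5 consensus peaks were called in both cell types. Of these, 2 lay in intron 3 of the first transcript, next to each other: chr15:8656701-8661514 was called for both proteins in RGCs and for RBPJ in IPCs, and chr15:8662338-8666963 for RBPJ in RGCs and Notch in IPCs. In the second of these the RGC and IPC peaks overlapped only in part, since the IPC Notch peak lay 10.8 kb and the RGC RBPJ peak 12.7 kb from the nearest start site. The farthest, chr15:8814708-8819338, lay 104 kb upstream, was called in the same 3 lists as the first intronic peak, and held 9 TTCCCA words. The IPC RBPJ peaks within these consensus peaks were narrower than the RGC RBPJ peaks: 960 against 4595 bp in the intron, 1796 against 3366 bp at the upstream peak and 828 against 4092 bp at chr15:8626463-8630554, past the end of the gene. IPC RBPJ peaks were also narrower over the whole lists, with a median of 1398 against 2059 bp, so this is not particular to Slc1a3. The fifth, chr15:8779471-8782630, lay 68.7 kb upstream and was called for RBPJ in RGCs and Notch in IPCs. The 10 peaks fell into 6 of the 8 clusters, with 3 in cluster 6. The stretches around the GTGGGAA word nearest to the midpoint are given for the peaks of 2 or more lists in which one lay clear of exons. The word lay inside the peak of every list called there, except in the third stretch, where it lay inside the IPC Notch peak only.
Slc1a3, peak stretch, chr15:8627556-8627615, minus strand: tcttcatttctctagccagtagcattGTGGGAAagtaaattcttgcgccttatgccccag
Slc1a3, peak stretch, chr15:8660099-8660158, plus strand: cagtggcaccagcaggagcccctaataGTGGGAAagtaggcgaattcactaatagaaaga
Slc1a3, peak stretch, chr15:8663416-8663475, minus strand: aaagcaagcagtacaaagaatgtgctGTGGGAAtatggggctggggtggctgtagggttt
Slc1a3, peak stretch, chr15:8816476-8816535, plus strand: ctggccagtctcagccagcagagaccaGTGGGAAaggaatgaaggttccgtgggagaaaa

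Ptprz1 encodes a receptor tyrosine phosphatase of the radial glial surface that binds matrix proteins, tenascin among them. It had 7 RGC RBPJ, 7 RGC Notch, 1 IPC RBPJ and 4 IPC Notch peaks in 11 consensus peaks. Of the marker genes with more than 1 consensus peak it was the only one with no start site inside a peak. The nearest, chr6:22875988-22880903, began 0.211 kb from a start site and lay in intron 1, with calls for RBPJ and Notch in RGCs and for Notch in IPCs. The IPC Notch peak (1202 bp) and the RGC Notch peak (1821 bp) within it did not overlap, as the former ended 1.97 kb and the latter began 2.67 kb after the first start site. Upstream of the gene, 5 consensus peaks lay between 38.0 and 240 kb from the start site, and all 5 were called for Notch in RGCs. Of these, chr6:22832670-22837498 was called in all 4 lists, chr6:22672663-22675921 for RBPJ in RGCs and Notch in both cell types, and chr6:22634339-22635681 for Notch in both cell types without RBPJ. The other 2 upstream peaks, of 7405 and 2902 bp, were called for Notch in RGCs alone and belonged to cluster 1. The 5 peaks deeper in the gene were each called in 1 RGC list, 4 for RBPJ and 1 for Notch. The upstream and the intragenic peaks of Ptprz1 thus differed in their calls: Notch upstream in every case, and mostly RBPJ alone within the gene beyond the first peak. The peak called in 3 lists 200 kb upstream held the GTGGGAA word shown here.
Ptprz1, peak stretch, chr6:22674586-22674645, minus strand: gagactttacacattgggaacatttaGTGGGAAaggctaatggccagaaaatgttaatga

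Tnc encodes tenascin C, a matrix protein secreted by radial glia. It had 4 RGC RBPJ, 2 RGC Notch, 1 IPC RBPJ and 1 IPC Notch peaks in 4 consensus peaks. The start-site peak, chr4:64045803-64048406, was called for RBPJ in both cell types and for Notch in neither. The RBPJ peak extended 0.621 kb before the start site in RGCs and 1.39 kb in IPCs. It had 2.69 TTCCCA words per kb, the highest density of the 39 peaks, and 3 of its 7 words extended to TTCCCAC. The farthest peak, chr4:64206157-64208571, 159 kb upstream, was called for Notch in both cell types and for RBPJ in RGCs. A peak 17.1 kb upstream, chr4:64064127-64066438, was called for both proteins in RGCs, and one 101 kb upstream for RBPJ in RGCs alone. The 250 bases before the Tnc start site held a TTCCCA word at their far end, and a GTGGGAA word stood 0.484 kb upstream, inside the RBPJ peaks of both cell types.
Tnc, bases before the start site, chr4:64047016-64047265, minus strand: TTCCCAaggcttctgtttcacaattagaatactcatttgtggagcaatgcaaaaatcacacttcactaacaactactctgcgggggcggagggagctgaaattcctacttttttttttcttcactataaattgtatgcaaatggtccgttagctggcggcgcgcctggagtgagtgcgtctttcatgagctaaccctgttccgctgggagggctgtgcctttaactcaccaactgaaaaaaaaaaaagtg
Tnc, peak stretch, chr4:64047472-64047531, plus strand: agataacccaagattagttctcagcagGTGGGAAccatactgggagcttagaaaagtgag
Tnc, peak stretch, chr4:64207610-64207669, plus strand: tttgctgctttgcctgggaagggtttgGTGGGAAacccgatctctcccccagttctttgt

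Prom1 encodes prominin-1 (CD133), a protein of membrane protrusions on the apical face of RGCs. It differed from the other 9 genes in holding no RGC peak. Its single peak, chr5:44047766-44049711, was called for RBPJ in IPCs. It lay in intron 3 of the first transcript, 2.19 kb from an internal start site, and belonged to cluster 3. It was also the 1 marker gene peak with no GATC site, the site that Dam methylates and DpnI cuts, a feature of 9.76% of all consensus peaks. How a peak without that site was called was not tested.

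Hopx encodes an atypical homeodomain protein that does not bind DNA itself and marks outer radial glia. It had 3 RGC RBPJ, 2 RGC Notch, 0 IPC RBPJ and 2 IPC Notch peaks. Its start-site peak, chr5:77113905-77117427, was called for Notch in RGCs and in IPCs and for RBPJ in neither, and it was the only start-site peak of a marker gene without an RBPJ call. RBPJ in RGCs was called instead within introns 1 and 2, and 6.88 kb from a start site on the upstream side. The peak in intron 2, chr5:77088892-77090837, was shared with IPC Notch. The start-site peak was placed in cluster 3, in which 96.7% of all consensus peaks had an IPC RBPJ call and 2.16% an IPC Notch call. The cluster and the calls of this peak therefore did not go together.

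**Figure D2:**
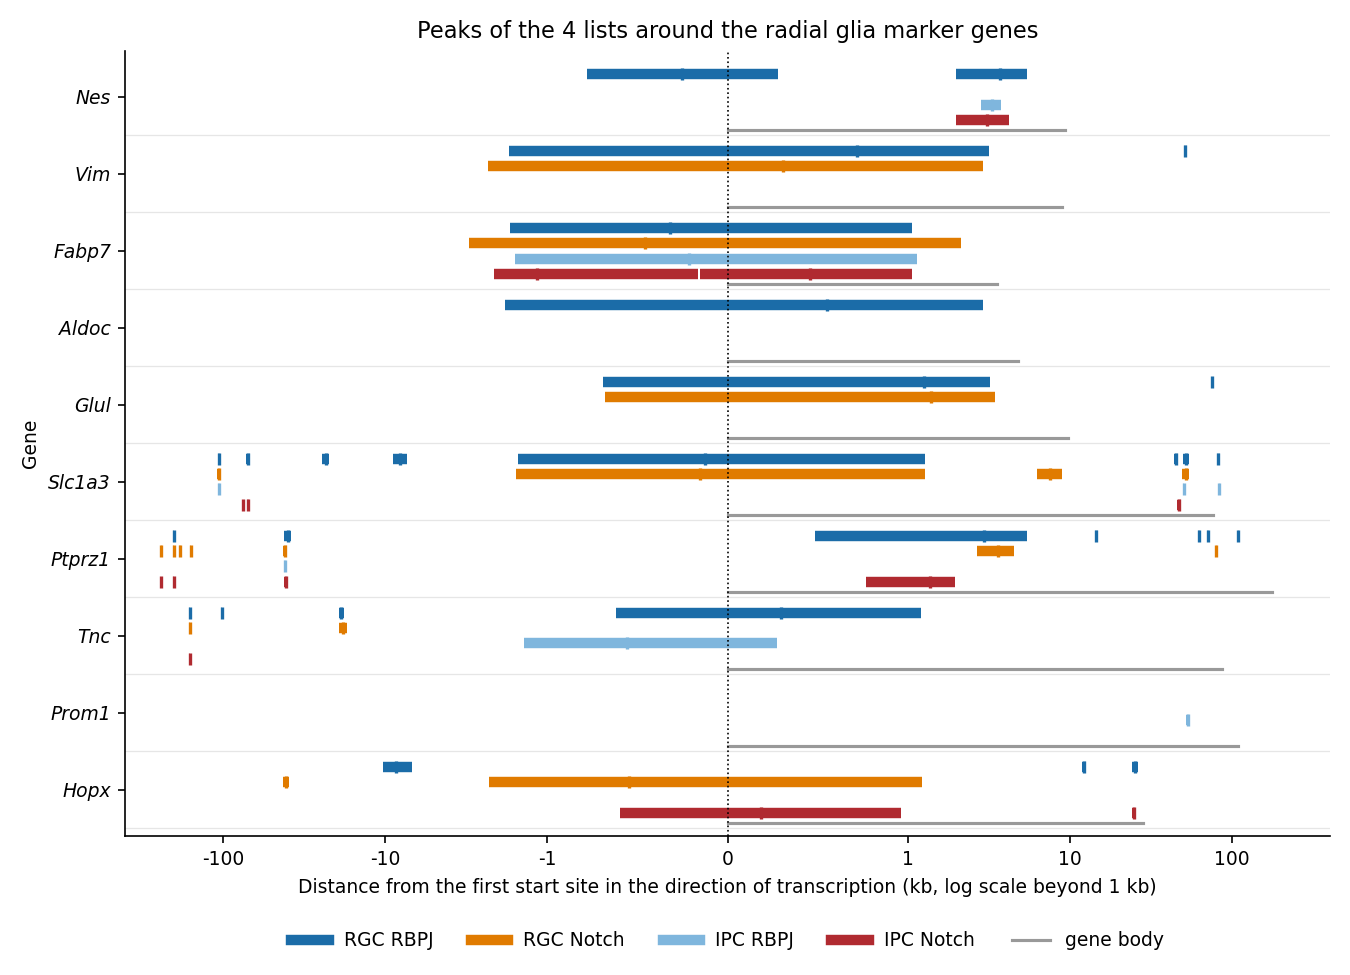
Peaks of the 4 lists (coloured bars, with a tick at the midpoint so that narrow distal peaks are visible) against distance from the first annotated start site of each marker gene in kb, in the direction of transcription, on a scale that is linear to 1 kb and logarithmic beyond. Grey lines are the gene bodies. At Fabp7 the calls of all 4 lists lie on the start site, at Hopx only those of Notch, and at Ptprz1 the upstream ticks all include RGC Notch.

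Start sites were covered by a consensus peak in 8 of the 10 marker genes, all but Ptprz1 and Prom1, against 16.0% of protein-coding genes. Taking each list alone, a peak covered a start site at 7 genes for RBPJ in RGCs, at 5 for Notch in RGCs, and at 2 for each protein in IPCs. Those of RBPJ in IPCs were Fabp7 and Tnc, and those of Notch in IPCs were Fabp7 and Hopx. The lists differed in size, with 14097 (RGC RBPJ), 3702 (RGC Notch), 5497 (IPC RBPJ) and 2157 (IPC Notch) peaks on the nuclear chromosomes. The share of all protein-coding genes with a covered start site was not counted for single lists. Whether the counts at the marker genes differed between lists or cell types beyond list size was therefore not tested. Although the genes were covered so often, the peaks were not mostly at start sites: 8 of the 39 lay on one (20.5%; Wilson 95% interval 10.8 to 35.5%), as did 16.6% of all consensus peaks. By midpoint, 15 fell in introns, 1 in an exon, 5 within 5 kb upstream of a start site and 18 between genes. The median distance to the nearest start site was 12.7 kb, against 21.1 kb for all consensus peaks.

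The stretches of chromosome nearest to the marker genes' start sites differed in length, from 5.42 kb for Aldoc to 645 kb for Tnc, and a long stretch can collect more peaks. Counted per length, the 1965 kb nearest to the 10 genes held 1.99 consensus peaks per 100 kb (exact Poisson 95% interval 1.41 to 2.71), against 0.763 over all chromosomes. Single genes ranged from 0.621 for Tnc to 18.4 for Aldoc, where the stretch holds little but the gene. Relative to each list's own density over all chromosomes, peaks were 2.95 times as dense for RBPJ in RGCs (1.99 to 4.21), 6.75 times for Notch in RGCs (4.0 to 10.7), 2.02 times for RBPJ in IPCs (0.872 to 3.98) and 8.36 times for Notch in IPCs (4.45 to 14.3). Both Notch lists thus had higher ratios than the RBPJ list of the same cell type, with intervals that overlapped in RGCs and did not in IPCs. The Notch list of each cell type rests on 4 samples and is shorter than the RBPJ list, which rests on 3. Whether this bears on the ratios was not tested. The IPC RBPJ interval included 1. Without Slc1a3 and Ptprz1, the ratios for the other 8 genes were 2.35, 4.17, 1.61 and 6.14 in the same order, that of RGC Notch moving most. The intervals of IPC RBPJ (0.438 to 4.11) and IPC Notch (2.25 to 13.4) then overlapped as well.

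**Figure D3:**
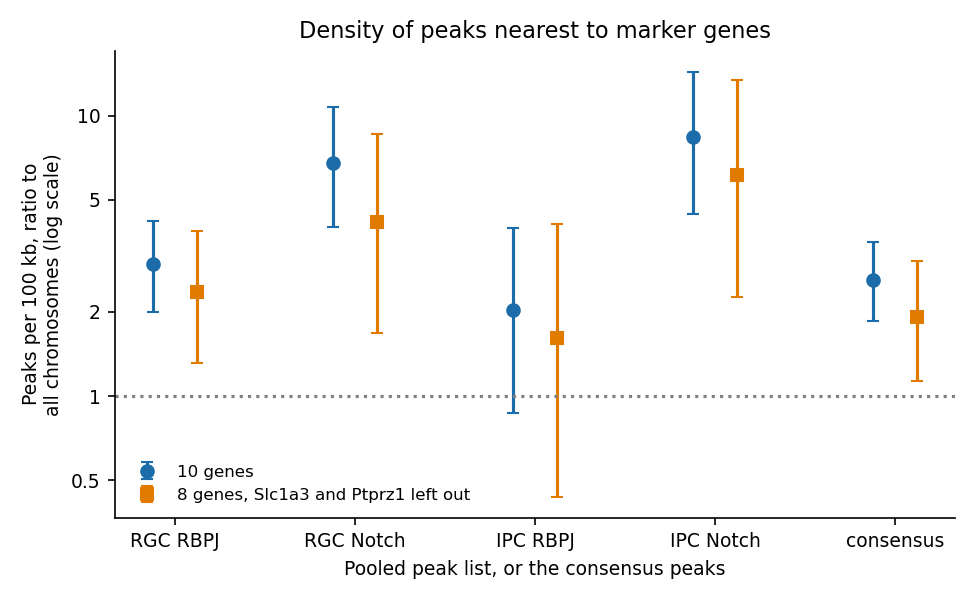
Peaks per 100 kb of the chromosome nearest to the marker genes, divided by the density of the same list over all chromosomes (log axis), for all 10 genes (circles) and for 8 genes without Slc1a3 and Ptprz1 (squares). Bars are exact Poisson 95% intervals for counting error only, and that of IPC RBPJ crosses 1 (dotted line) for both sets.

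A consensus peak could be called in both cell types. This was so for 15 of the 39 marker gene peaks (38.5%; Wilson 95% interval 24.9 to 54.1%) and for 11.5% of all consensus peaks. The 15 lay at 6 genes: 5 at Slc1a3, 4 at Ptprz1, 2 each at Tnc and Hopx, and 1 each at Fabp7 and Nes. Without Slc1a3 and Ptprz1 the count was 6 of 18. A further 22 peaks were called in RGCs alone, 56.4% of the marker gene peaks (41.0 to 70.7%), against 66.1% of all. The 2 called in IPCs alone were 5.13% of the marker gene peaks (1.42 to 16.9%), against 22.4% of all. Marker gene peaks were wider, with a median of 2645 bp against 1890 bp, and wide consensus peaks were called in both cell types more often. Among peaks of 4 kb or more, 7 of 11 were called in both cell types, against 33.7% of all peaks of that width, and among peaks of 1 to 2 kb 2 of 9, against 5.60%. Weighting all peaks to the widths of the marker gene peaks gave 17.0%. Counting any 2 or more lists, 19 of the 39 were called, against 17.1% of all consensus peaks, a count that includes pairs of lists from the same cell type. Weighted to the widths of the marker gene peaks, the share of all peaks in 2 or more lists was 25.1%. Among peaks of 4 kb or more it was 49.3%, against 9 of the 11 marker gene peaks.

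**Figure D4:**
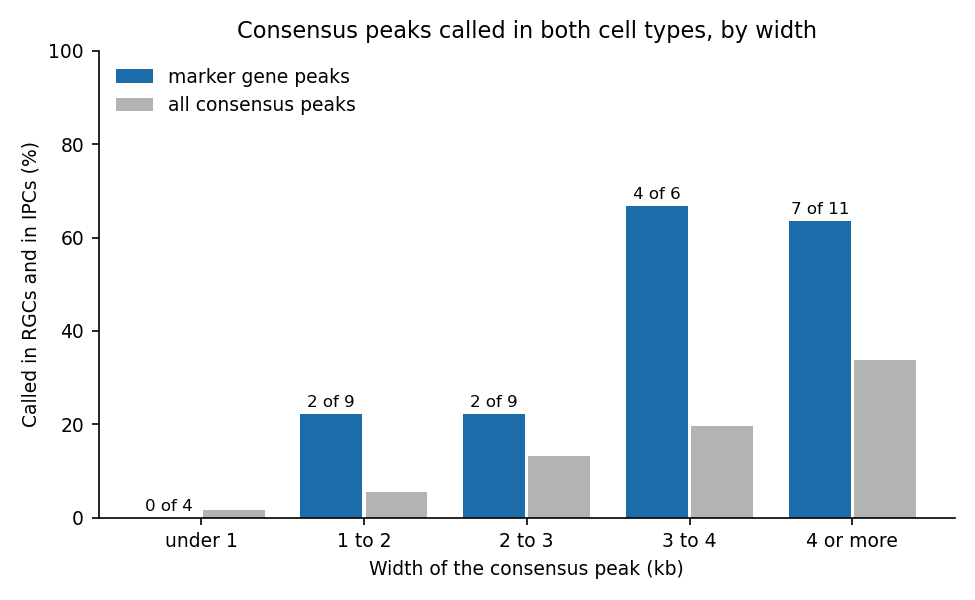
Share of consensus peaks called in RGCs and in IPCs, by width of the consensus peak, for marker gene peaks (blue, with counts) and all consensus peaks (grey). In both sets the share is low under 1 kb, with 0 of 4 marker gene peaks, and higher from 3 kb on.

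Of the 12 consensus peaks with an IPC Notch call, 9 also had an RBPJ call in RGCs and 3 had one in IPCs. A Notch call in RGCs was present at 7 of the 12. Over all consensus peaks with an IPC Notch call, 53.7% had an RGC RBPJ call, 23.4% an IPC RBPJ call and 23.5% an RGC Notch call. Controls shared between lists can add to such overlaps, and their part was not tested. The 3 marker gene peaks with both IPC calls were those at Fabp7, in the Nes introns and 38.0 kb upstream of Ptprz1.

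The deposited consensus peaks carry one of 8 cluster numbers, which the authors derived from binding intensity in the 4 conditions, so a cluster is not independent of the calls. Marker gene peaks occurred in all 8. Cluster 2, whose peaks over the whole set had RGC RBPJ calls in 78.9% and IPC Notch calls in 46.5%, held 8 of the 39 (20.5%; Wilson 95% interval 10.8 to 35.5%), against 4.76% of all consensus peaks. They lay at Fabp7, Slc1a3, Hopx, Ptprz1, Tnc and Glul, and included the start-site peaks of Fabp7, Slc1a3 and Glul. Cluster 7, in which RBPJ calls in RGCs (73.7%) and IPCs (52.9%) prevail, held 7 peaks (17.9%; 8.98 to 32.7%), against 11%, with the start-site peaks of Nes, Vim and Tnc among them. Cluster 6, with RGC RBPJ calls in 64.2% and IPC Notch calls in 48.3% of its peaks, held 6 (15.4%; 7.25 to 29.7%), against 10.8%. Those lay at 4 genes, Slc1a3, Hopx, Ptprz1 and Aldoc, whereas 7.78% of protein-coding genes had a cluster 6 peak. Clusters 3 and 8, in which 96.7% of peaks had an IPC RBPJ call and 99.4% an RGC RBPJ call, held 2 (5.13%) and 1 (2.56%), against 16.3% and 14.4%. The share of all peaks lay outside the interval of the marker genes for cluster 2 and cluster 8, and just inside it for cluster 3.

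**Figure D5:**
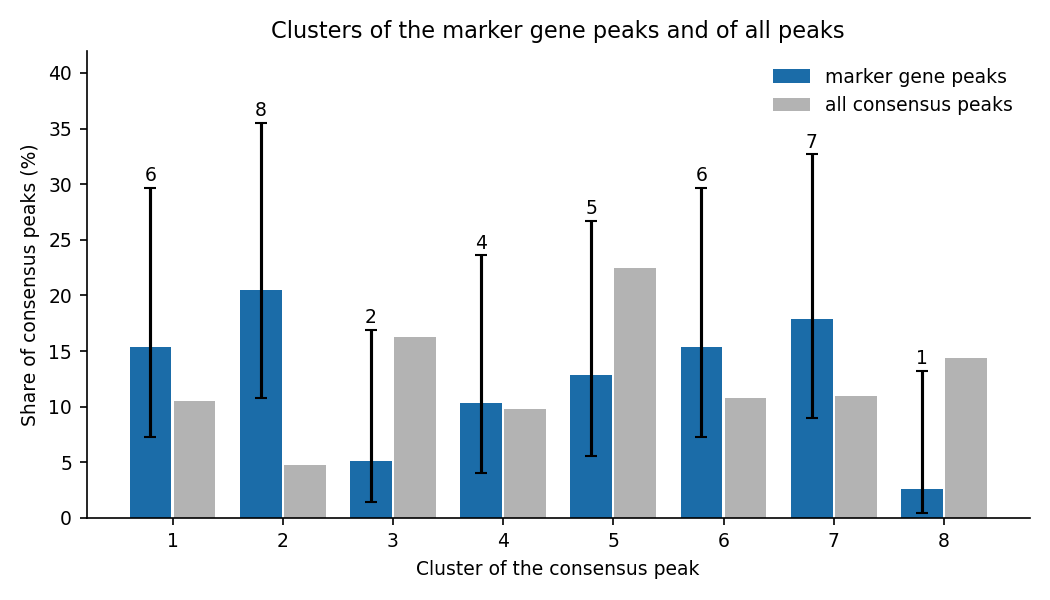
Share of the 39 marker gene peaks (blue, with the number of peaks and Wilson 95% intervals for counting error only) and of all 20809 consensus peaks (grey) in each of the 8 clusters. Cluster 2 holds 20.5% against 4.76%, and clusters 3 and 8 hold 5.13% and 2.56% against 16.3% and 14.4%.

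Words that RBPJ is known to bind had a density close to that of all consensus peaks. TTCCCA, counted on both strands, occurred 1.25 times per kb in the 39 peaks (143 words; exact Poisson 95% interval 1.05 to 1.47) and 1.17 times per kb in all consensus peaks. In the central 500 bp the order was the reverse, 0.978 against 1.18. The longer word TTCCCAC, which contains the shorter one, stood at 0.270 per kb in both. At least 1 TTCCCA word was present in 34 of 39 peaks (87.2%), against 82.9% of all. TAATTA, a core of homeodomain sites, occurred 0.436 times per kb, against 0.358. Of the 8 marker genes whose 250 bases before the first start site lay inside a peak, 3 (Fabp7, Aldoc and Tnc) had a TTCCCA word there. Over all 10 marker genes the count was also 3. Of the same stretches of 21931 protein-coding genes, inside a peak or not, 22.1% had one. For TTCCCAC it was Aldoc alone, among the 8 as among all 10, against 5.26% of the stretches of all genes. Of 60-base stretches tiled over all consensus peaks, 1.45% contained TTCCCAC on either strand. Pairs of TTCCCA words facing each other 15 to 17 bases apart, the arrangement of paired Notch sites, were found in 0 of the 39 peaks and in 0.231% of all. A count of 0 in 39 allows a share of up to 7.69%, taking 3 counts as the limit, or 8.97% by the Wilson interval. GC content was 44.3% at the median, against 45.3%, and GATC sites numbered 2.90 per kb, against 2.95.

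Other groups of genes were counted in the same way. Of 12 further radial glia genes of metabolism, adhesion and signalling, 9 had a consensus peak, at 1.01 per 100 kb, with Cdh2 (13 peaks), Gja1 (8) and Ddah1 (7) in front. Pla2g7, Phgdh and Acsbg1 had 0. In that group 6 of 38 peaks (15.8%) were called in 2 or more lists. That share was 34.3% for the transcription factors below, 31.8% for the genes of IPCs, 21.2% for the neuron genes and 0 for those of endothelium and microglia, beside 48.7% for the 10 marker genes. Median peak widths were 1586, 2333, 3364, 2595 and 1806 bp for the 5 groups in this order, against 2645 bp for the marker genes. These shares were not weighted for width. The 8 radial glia transcription factors all had peaks, 102 in total and 2.71 per 100 kb, led by Sox2 and Sox9 with 23 each, and 30.4% of them were in cluster 6. Of 10 genes of IPCs, 8 had peaks, at 2.07 per 100 kb, beside 1.99 for the 10 marker genes, and 27.3% of their peaks were in cluster 3. Eomes led with 6. All 10 neuron genes had peaks, at 1.10 per 100 kb, of which 21.2% were in cluster 3. Of 8 genes of endothelium and microglia, which the promoters should not reach, 3 had peaks, at 0.609 per 100 kb, with 6 of the 8 peaks at Cdh5 and 0 in either Notch list.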

How the data were processed

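TaDa with Dam fused to RBPJ or Notch was done in RGCs and IPCs of the embryonic mouse cortex. Of the 39 samples of the series, 14 fusion samples lie behind the lists. The Dam-only samples named in the methods are 5 of RGCs, 4 of IPCs, 7 with a ubiquitous promoter and 3 of neurons. Which of them lie behind each list is not stated. The samples of full-length Notch were not considered here. The authors trimmed the reads and mapped them to mm10. Fusion samples were paired with Dam-only samples in Macs2 (broad peaks), and only peaks past an FDR limit in all pairs of a condition were kept. The methods do not say whether pairs were limited to a cell type. They merged the 4 deposited lists into consensus peaks and clustered these by k-means on binding intensity. The deposited values are positions in bp. Score columns are constant, and the cluster file holds no intensity, so depth is unknown and 0 columns of single samples exist. A list with more samples has more pairs to pass.

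Peaks of the 21 nuclear chromosomes were assigned to the nearest start site of 21938 protein-coding genes, with ties (270 consensus peaks) counted for each tied gene. The cluster file's list names differed from the lists themselves at 0 peaks. Sequence came from GRCm38.p6, words were counted on both strands, and positions count from 1. Gene features were read at the peak's midpoint. A gene's stretch is the part of the chromosome nearest to its start sites. Shares have Wilson and densities exact Poisson intervals at a level of 95%. Python 3.11.15 with numpy 2.4.6, scipy 1.17.1 and matplotlib 3.10.9 was used.

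All 10 genes are named in the text, with the peaks on start sites, those called in 2 or more lists and the nearest peak of each gene in full. At most 3 genes of each comparison list are named with their counts, those with the most peaks, besides genes with 0. The stretches printed were set by rule: up to 250 bases before a start site inside a peak, shown where they hold the word and touch no exon, and 60 bases around the GTGGGAA word nearest to a peak's midpoint, outside exons. The members, lists and rules were chosen with earlier results of these data known. The procedures were tested on simulated data, where nearest start sites matched a direct search at 500 of 500 places.

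The alternatives were peaks of at least 1000 bp, a limit of 100 kb, start sites of all annotated genes, distance from the midpoint, an overlap of 50%, start sites within 1000 bp or of the gene record only, the word TTCCCAC, the central 500 bp, density per length, and every peak within 50 kb of a marker gene. Leaving out Slc1a3 or Ptprz1 was added after seeing the data.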

Additional observations from a re-analysis of the deposited data

How the results depend on the processing

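Of 58 values recomputed under alternatives for 10 results, 43 stayed within 1.5 times the reported count or within its interval. The 58 include changes of measure, such as counts given per 100 kb or the longer word TTCCCAC. The comparison of TTCCCA density with all consensus peaks turned around in the central 500 bp, where it was 0.978 against 1.18. Using start sites of all annotated genes lowered the consensus peaks of the marker genes from 39 to 24, those in 2 or more lists from 19 to 10, and the list peaks to 19 (RGC RBPJ), 8 (RGC Notch), 5 (IPC RBPJ) and 7 (IPC Notch), because some peaks, in introns as well as between genes, then lay nearer to start sites of non-coding, pseudogene or unclassified records, but all 10 genes kept a consensus peak. With peaks of at least 1000 bp the IPC RBPJ list held 5 marker gene peaks in place of 8. Counting every peak within 50 kb of a marker gene gave 8 IPC Notch peaks in place of 13 and 12 RGC Notch peaks in place of 18. The RBPJ counts changed less, to 29 from 30 in RGCs and to 9 from 8 in IPCs. Under the limit of 100 kb the lists held 26 (RGC RBPJ), 12 (RGC Notch), 7 (IPC RBPJ) and 10 (IPC Notch) peaks. Per 100 kb of the nearest stretch the counts became 1.99 consensus, 1.53 RGC RBPJ, 0.916 RGC Notch, 0.407 IPC RBPJ and 0.662 IPC Notch peaks. TTCCCA words at 1.25 per kb became 0.270 for TTCCCAC, a longer word, and 0.978 in the central 500 bp, for which the cause was not tested. The overlap of 50% could not change a count, since every list peak lies wholly inside its consensus peak. No paired analysis was possible because each list pools its samples, and for the same reason no replicate could be left out. A stricter threshold could not be applied because the lists hold no score.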

Other observations

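The marker genes differed in the lists that held their peaks. Fabp7, Slc1a3, Ptprz1 and Tnc had peaks in all 4 lists, Nes and Hopx in 3, Vim and Glul in both RGC lists only, Aldoc in the RGC RBPJ list only and Prom1 in the IPC RBPJ list only. The share of all protein-coding genes with each such combination was not counted. The start-site peaks of these genes took 5 different sets of calls: all lists at Fabp7, both RGC lists at Slc1a3, Vim and Glul, RGC RBPJ alone at Nes and Aldoc, RBPJ of both cell types at Tnc, and Notch of both cell types at Hopx. Among all consensus peaks, on start sites or not, these sets made up 0.678%, 5.01%, 52.1%, 4.20% and 0.471% in the same order.

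Other annotated genes lie beside several of the peaks. The Hopx peak 6.88 kb upstream covers a start site of the lincRNA Gm15831, and the Tnc peak 101 kb upstream covers one of the processed transcript 8030451A03Rik. The Hopx peak in intron 2 lies 3.69 kb from Hopxos, an antisense gene. The 5 upstream peaks of Ptprz1 lie nearest, among all annotated genes, to processed pseudogenes, at 8.81 to 27.5 kb.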
